A study of Mus musculus with 6 samples.

Results

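Sterol and fatty acid synthesis was followed across 34 genes, taken as a named set: 19 of the sterol branch, 11 of the fatty acid branch and 4 regulators. Of these, 33 were measured here by a probe set that carries a single gene symbol, out of 18193 genes with such a probe set. Acat2 has no such probe set, and its expression was not analysed here. Each gene was represented by its brightest probe set, judged by its mean of the 6 arrays, so the choice did not use the difference between groups. The arrays labelled knockout came from 3 mice with floxed Ppard alleles (PPARbetafl/fl) and the Pdx1Cre transgene, in which the Pdx1 promoter drives Cre recombinase, and the control arrays from 3 littermates with the floxed alleles and without Cre. All mice were 8 weeks old and of a mixed SV 129/C57BL/6 background, and each array held RNA of a different animal. The Pdx1 promoter is active in the whole developing pancreas, and no array came from a Cre-positive mouse with intact Ppard alleles, so Cre and deletion cannot be told apart. Labels name the material as beta-cells while the protocol isolates whole islets; the beta cell hormone transcripts Ins2 and Iapp, the glucagon transcript Gcg and the somatostatin transcript Sst all lay near the top of the scale, between 12.78 and 14.12 on every array.

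Cholesterol is built from acetyl-CoA through mevalonate, squalene and lanosterol, and fatty acids are built from the same acetyl-CoA through malonyl-CoA and palmitate, which elongases and desaturases then lengthen and unsaturate. Both branches are controlled by the SREBP transcription factors. SREBP-2, made from Srebf2, acts mainly on sterol genes and SREBP-1c, made from Srebf1, mainly on fatty acid genes. SCAP carries both to the Golgi for cleavage, and INSIG proteins hold SCAP back in the endoplasmic reticulum when sterols are plentiful. In beta cells, fatty acid synthesis genes also respond to glucose through ChREBP, the product of Mlxipl. Ppard encodes PPARβ, a nuclear receptor activated by fatty acids.

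The promoters below are those of the 4 members with the smallest p-values among the 27 with a RefSeq promoter, and show what is shared and not shared upstream of genes that differed in opposite directions. Each runs 5′ to 3′ from 250 bases before to 50 bases after the start of the gene in the RefSeq table of build GRCm38.p6, and all lie on the minus strand. Me1 is at chr9:86695865-86696164, Fads2 at chr19:10101454-10101753, Srebf1 at chr11:60222532-60222831 and Ebp at chrX:8193463-8193762. Capitals mark the NF-Y box, CCAAT, on either strand (ATTGG is its reverse).
Me1: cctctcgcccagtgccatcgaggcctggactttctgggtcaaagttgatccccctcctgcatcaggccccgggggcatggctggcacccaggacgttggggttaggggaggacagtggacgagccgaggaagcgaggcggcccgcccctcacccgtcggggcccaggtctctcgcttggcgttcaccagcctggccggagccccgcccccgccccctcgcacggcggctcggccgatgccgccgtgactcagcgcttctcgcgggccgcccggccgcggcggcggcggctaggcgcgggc
Fads2: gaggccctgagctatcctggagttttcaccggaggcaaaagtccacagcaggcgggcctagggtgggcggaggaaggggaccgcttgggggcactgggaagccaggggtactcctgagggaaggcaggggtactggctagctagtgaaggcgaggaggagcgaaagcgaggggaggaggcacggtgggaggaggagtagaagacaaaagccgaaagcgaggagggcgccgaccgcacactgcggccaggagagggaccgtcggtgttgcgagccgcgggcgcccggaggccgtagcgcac
Srebf1: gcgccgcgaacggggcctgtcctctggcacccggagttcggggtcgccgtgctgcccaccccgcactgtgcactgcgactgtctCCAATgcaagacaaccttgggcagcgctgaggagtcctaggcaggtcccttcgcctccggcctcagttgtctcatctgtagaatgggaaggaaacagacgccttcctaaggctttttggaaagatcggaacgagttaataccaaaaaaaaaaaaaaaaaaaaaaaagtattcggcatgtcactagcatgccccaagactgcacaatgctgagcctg
Ebp: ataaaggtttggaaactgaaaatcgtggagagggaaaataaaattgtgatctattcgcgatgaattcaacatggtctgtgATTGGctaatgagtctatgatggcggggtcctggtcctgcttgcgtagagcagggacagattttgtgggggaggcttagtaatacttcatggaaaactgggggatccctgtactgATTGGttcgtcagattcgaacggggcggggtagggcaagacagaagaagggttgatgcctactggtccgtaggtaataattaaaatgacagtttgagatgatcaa
Me1 and Srebf1 each have a further window in the table, not printed, that holds a CCAAT. Of the windows printed, that of Ebp holds 2 NF-Y boxes, that of Srebf1 1, and those of Me1 and Fads2 0. Base composition differed as well: G and C made up 74.7% of the Me1 window, 67.0% of that of Fads2, 54.3% of that of Srebf1 and 45.3% of that of Ebp.

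NF-Y is the factor that SREBP usually binds beside. A CCAAT was found in at least 1 promoter window of 14 of 15 sterol genes, 5 of 8 fatty acid genes and all 4 regulators. It was found in 41.1% of all 27025 genes and 37.4% of all windows. The 1 sterol gene without it is Acat2, which has a promoter window but no expression value here. Sqle, Fdps, Fdft1, Stard4, Fads1, Scd1 and Scd2 have no RefSeq promoter window here and were not searched. The sterol regulatory element was searched in its textbook form, which 0.234% of windows and 0.270% of genes hold and no member does. It was also searched in the shorter form TCACNCCAC, which lies within it and which 1.24% of windows and 1.44% of genes hold. Among the members the shorter form occurred in Hmgcs1 alone, at position -137 from the start. An E-box, CACGTG, which SREBP-1 and ChREBP partners can bind, is held by 7.15% of windows and 8.09% of genes. Of the 27 members searched, Insig1, Hsd17b7, Dhcr7, Sc5d and Elovl5 hold it. All searches covered both strands, and a match is a description of the letters only.

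No member of either branch passed the test. In the comparison of arrays labelled knockout with controls, by limma with Benjamini-Hochberg adjustment over all 45037 probe sets, 0 of 33 members had an adjusted p under 0.05, the threshold for a call, against 1.10% of all 18193 genes (0.852% higher and 0.247% lower) and 0.897% of all probe sets. At an unadjusted p under 0.05 there were 7 members, 4 higher and 3 lower, where all genes gave 14.0% (8.37% higher and 5.58% lower). The smallest adjusted p were 0.0711 for Me1 and 0.0766 for Sqle. With other settings 2 members were called, always Me1 and Sqle. These settings were the fit and adjustment run over 1 probe set per gene (background 1.83%) or over probe sets above the median level (2.84%). The others were a level-dependent variance (2.73%) and the mean of each gene's probe sets (2.19%). Values below are log2 expression values, and differences are labelled knockout minus control on that scale with limma's standard error.

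The branches leaned in opposite directions, a contrast that is described here and not tested. Of 18 measured sterol genes 14 had higher means in the arrays labelled knockout, with a median difference of 0.13, while 3 of 11 fatty acid genes were higher, with a median of -0.16. Across all genes 50.4% were higher and the median was 0.0020. The members' groups did not overlap for 6 sterol and 7 fatty acid genes, and for 14 of the 33 members in all (42.4%), against 21.2% of all genes. Without overlap, 5 of the 18 sterol genes were higher and 1 of the 18 lower, and 2 of the 11 fatty acid genes were higher and 5 of the 11 lower, where 12.1% of all genes were higher and 9.06% lower without overlap. All 33 members lay above the median level of all probe sets, as did 11082 of the 18193 genes. The share without overlap among these brighter genes was not computed. The counts and medians given for the branches are descriptions, since the members were chosen with results of these arrays known.

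**Figure D1:**
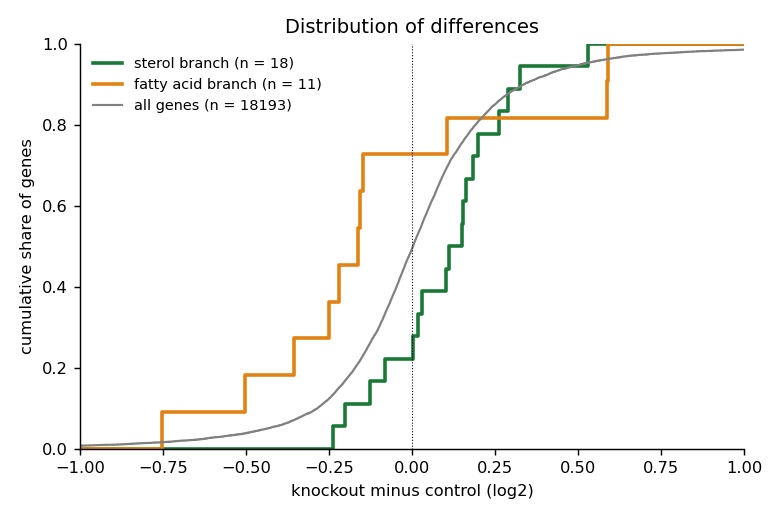
Cumulative share of genes (vertical axis) against the difference, knockout minus control, in log2 units (horizontal axis, from -1 to 1), for the 18 sterol genes, the 11 fatty acid genes and all 18193 genes. The sterol curve lies to the right of the curve of all genes over most of its length, with a median of 0.13, and the fatty acid curve to the left, with a median of -0.16 and an upper tail made of Me1 and Fads1.

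The mean of the 18 sterol genes was 9.01, 8.98 and 9.02 in arrays 1 to 3 of the mice labelled knockout, and 8.95, 8.86 and 8.89 in control arrays 1 to 3. Every array labelled knockout was above every control, by little. The mean of the 11 fatty acid genes was 8.80, 8.69 and 8.81 in the arrays labelled knockout and 8.98, 8.84 and 8.82 in controls, where all controls were higher and the gap to control 3 was small. The sterol mean minus the fatty acid mean of the same array was 0.21, 0.29 and 0.21 in the arrays labelled knockout, against -0.031, 0.024 and 0.064 in controls (0.24 ± 0.05 against 0.02 ± 0.05, SD, n = 3 each). The groups were separate on this contrast within an array, by 0.22 on average, and a shift common to all genes of an array cancels in it.

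**Figure D2:**
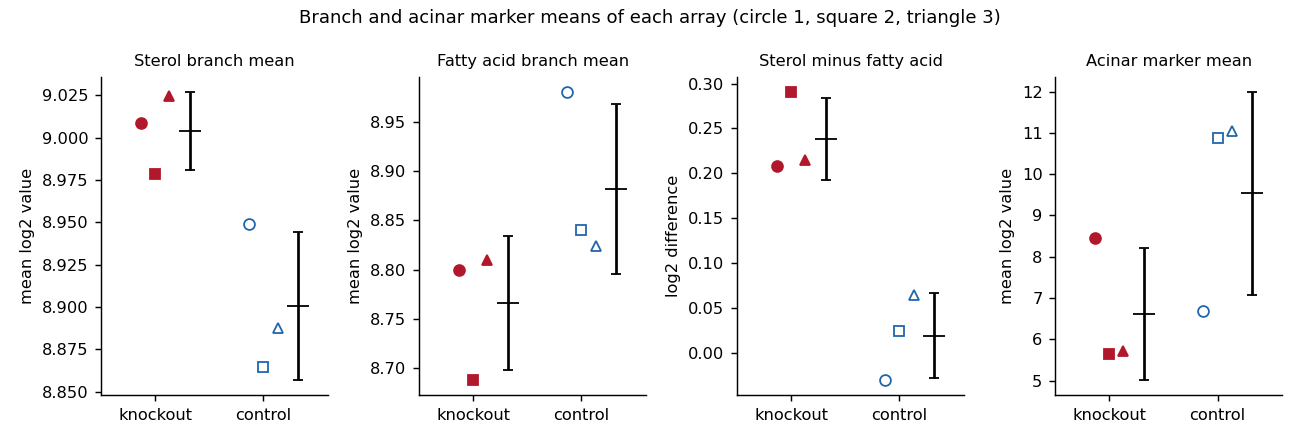
Mean log2 value of the 18 sterol genes, of the 11 fatty acid genes, their difference, and the mean of 24 acinar marker genes, for each array (circle replicate 1, square 2, triangle 3; knockout filled, control open; bars are mean ± SD of 3 arrays). The sterol minus fatty acid difference lies between 0.21 and 0.29 in the arrays labelled knockout and between -0.031 and 0.064 in controls, while the acinar mean overlaps between the groups.

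Array medians lay between 5.39 and 5.49, and RNA of exocrine cells varied among these arrays. The mean of 24 measured acinar markers (of 30 listed) was 8.46, 5.64 and 5.72 in the arrays labelled knockout and 6.69, 10.88 and 11.04 in controls; 1 of the 24 was higher in the arrays labelled knockout and 0 were called. Their summed linear level ranged from 2358 to 21009 in the arrays labelled knockout and from 5290 to 98996 in controls. Of 9 immune markers 8 were higher and 1 (Laptm5) was called, and their summed linear level ranged from 2035 to 2398 in the arrays labelled knockout and from 1298 to 1344 in controls. Among endocrine markers, 0 of 5 for delta and PP cells were higher and 2 were called lower. Their list means were 10.07 in the arrays labelled knockout and 10.82 in controls, and the arrays did not overlap. For alpha cells, 0 of 4 measured markers were higher and 0 were called, with list means of 10.27 in the arrays labelled knockout and 10.62 in controls, and the arrays did not overlap. For beta cells, 3 of 10 measured markers were higher and 1 was called lower. Their list means were 11.63 in the arrays labelled knockout and 11.84 in controls, and the arrays overlapped. Of 5 measured duct markers only 1 was higher, and it was called, while the median difference was -0.19. The duct list means were 7.63 in the arrays labelled knockout and 7.45 in controls. The mean over 6 measured adipocyte markers (of 8 listed), a lineage rich in fatty acid synthesis enzymes, was 5.27 ± 0.19 in the arrays labelled knockout and 5.31 ± 0.14 in controls (SD, n = 3 each). The part of exocrine, endocrine and immune RNA in the members' differences was not tested beyond the fits with an acinar covariate and without controls 2 and 3 given below, and in whole islets fewer cells of a type and less RNA per cell cannot be told apart. The targeted gene checks nothing here: Ppard had values of 8.01, 8.20 and 7.70 in the arrays labelled knockout and 7.75, 7.56 and 7.12 in controls (difference 0.49 ± 0.20, adjusted p = 0.377), and the labels do not name the deleted exon.

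**Figure D3:**
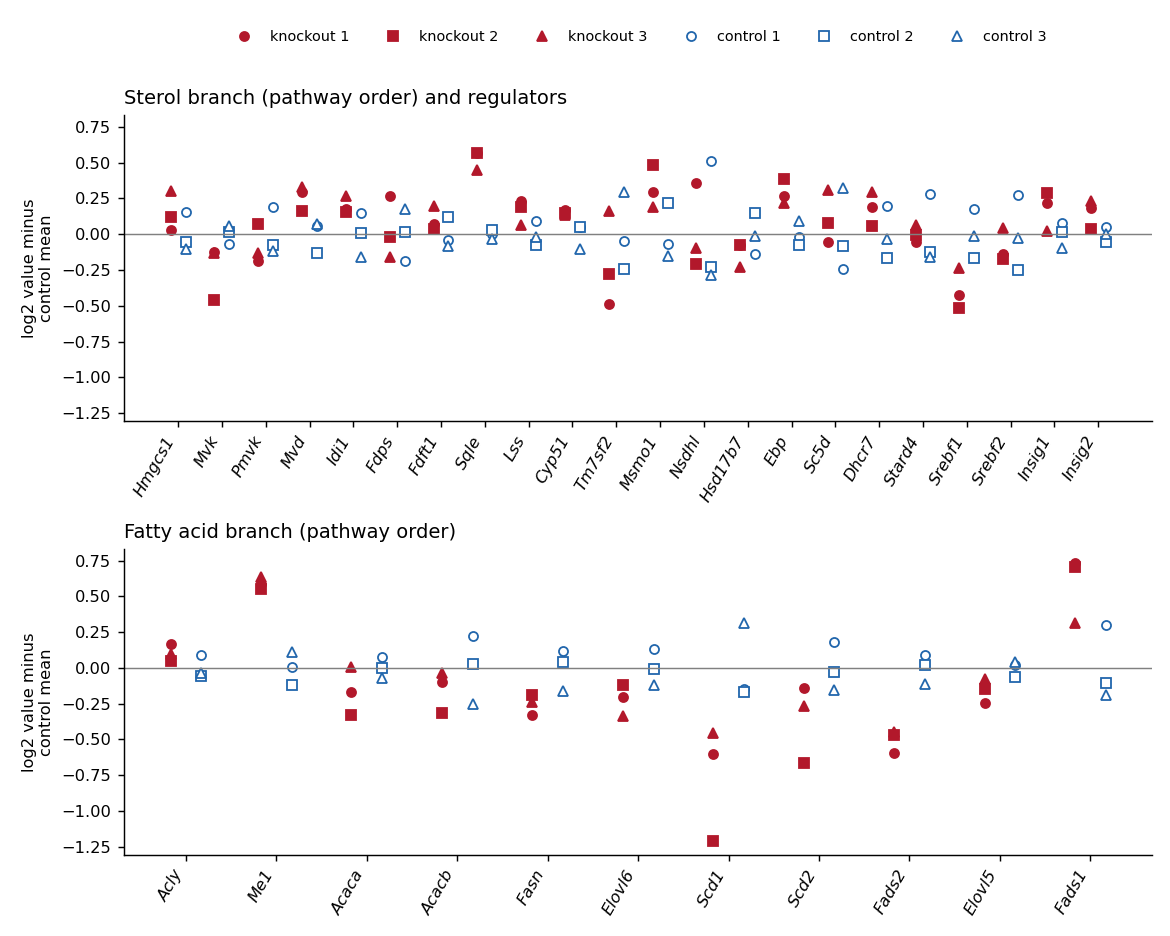
Log2 value of each member on each array minus that gene's control mean (vertical axis), for the sterol genes in pathway order with the regulators (upper panel) and the fatty acid genes in pathway order (lower panel); knockout filled, control open, shapes for replicates. All 3 filled points lie above all open points for Mvd, Idi1, Sqle, Cyp51, Ebp, Me1 and Fads1, and below them for Mvk, Srebf1, Scd1, Fads2, Fasn, Elovl6 and Elovl5.

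Among the regulators, Srebf1 had the largest difference. Its values were 8.23, 8.13 and 8.42 in the arrays labelled knockout, against 8.83, 8.48 and 8.64 in controls, a difference of -0.39 ± 0.14 with a 95% confidence interval of -0.72 to -0.069 (adjusted p = 0.303). The groups did not overlap, although knockout 3 and control 2 were only just apart. A single probe set reads Srebf1, and these values do not separate the SREBP-1a and SREBP-1c transcripts, which start at different promoters. Srebf2 stood at 8.05, 8.01 and 8.23 in the arrays labelled knockout and 8.46, 7.94 and 8.16 in controls, so the groups overlapped. Its difference of -0.089 ± 0.157 had an interval of -0.46 to 0.28 (adjusted p = 0.866), and it turned to 0.048 without control 1. Insig1, itself an SREBP target as well as a brake on SREBP cleavage, had 11.02, 11.08 and 10.82 in the arrays labelled knockout and 10.88, 10.81 and 10.70 in controls (0.18 ± 0.12, adjusted p = 0.585). Insig2 had 9.83, 9.68 and 9.88 in the arrays labelled knockout and 9.70, 9.59 and 9.65 in controls (0.15 ± 0.11, adjusted p = 0.615). In both INSIG genes 1 array labelled knockout lay within the range of the controls. All 3 Insig2 probe sets were higher, by 0.14 to 0.34.

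The first steps of the sterol branch lead from acetyl-CoA to farnesyl diphosphate. Mvd, which encodes the decarboxylase that makes isopentenyl diphosphate, had 7.06, 6.93 and 7.10 in the arrays labelled knockout, against 6.82, 6.64 and 6.84 in controls. The groups were separate, by 0.26 ± 0.11 on average (adjusted p = 0.395), and a second, dimmer probe set differed by 0.35 without overlap. Idi1, the isomerase of the next step, had 9.48, 9.46 and 9.56 in the arrays labelled knockout and 9.45, 9.31 and 9.14 in controls (0.20 ± 0.12, adjusted p = 0.539). Here control 1 nearly reached the arrays labelled knockout, and the difference was 0.051 without controls 2 and 3. Mvk, mevalonate kinase, ran the other way, with 7.12, 6.78 and 7.11 in the arrays labelled knockout and 7.18, 7.26 and 7.31 in controls (-0.24 ± 0.13, adjusted p = 0.500). Judged by the brightest probe sets, Mvk was the only sterol gene that was lower without overlap, and its difference was -0.13 without knockout 2. A second Mvk probe set of nearly the same brightness differed by -0.097, with overlap. Hmgcs1, which makes HMG-CoA, Pmvk, the second kinase of the pathway, Fdps, which makes farnesyl diphosphate, and Fdft1, squalene synthase, overlapped between the groups, with differences of 0.15, -0.083, 0.030 and 0.10. The dimmer Hmgcs1 probe sets differed by 0.16, 0.28, 0.34 and -0.16, and those of Fdft1 by 0.094, -0.10 and -0.16, all with overlap.

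Sqle, squalene epoxidase, which introduces the first oxygen into squalene and is a control point of the branch, differed most among sterol genes. Its values were 10.68, 10.68 and 10.56 in the arrays labelled knockout, against 10.12, 10.15 and 10.08 in controls. The lowest array labelled knockout was well above the highest control, and both groups were tight (10.64 ± 0.07 against 10.12 ± 0.03, SD, n = 3 each). The difference of 0.53 ± 0.10, a ratio of 1.44, had a 95% confidence interval of 0.29 to 0.76 (adjusted p = 0.0766). With any 1 array left out it stayed between 0.51 and 0.57, with adjusted p between 0.0854 and 0.278, and it was 0.55 with the acinar level as a covariate and 0.53 without controls 2 and 3. Over the alternatives its adjusted p ranged from 0.00873 to 0.316, the lowest with a level-dependent variance and robust fit.

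After squalene epoxide, Lss forms lanosterol and Cyp51 removes a methyl group from it. Lss had 10.42, 10.38 and 10.25 in the arrays labelled knockout and 10.28, 10.12 and 10.17 in controls (0.16 ± 0.11, adjusted p = 0.586), so control 1 stood just above knockout 3. The dimmer Lss probe sets differed by 0.18 ± 0.11 and 0.60 ± 0.34, both narrowly without overlap, the latter with control 3 low at 4.95. Cyp51 had 10.28, 10.26 and 10.25 in the arrays labelled knockout and 10.17, 10.16 and 10.01 in controls (0.15 ± 0.10, adjusted p = 0.589), a small gap without overlap. Of its 2 dimmer probe sets, 1 differed by 0.38 and the other by -0.21. Msmo1, a methyl sterol oxidase, had 9.19, 9.38 and 9.09 in the arrays labelled knockout and 8.82, 9.11 and 8.74 in controls (0.32 ± 0.14, adjusted p = 0.405). Its groups overlapped at control 2, and its second, dimmer probe set differed by -0.28. Ebp, the sterol isomerase, whose promoter with 2 NF-Y boxes is printed above, had 8.30, 8.42 and 8.25 in the arrays labelled knockout and 8.02, 7.96 and 8.13 in controls. Its groups were separate, with a difference of 0.29 ± 0.11 (95% confidence interval 0.034 to 0.55, adjusted p = 0.333), which was 0.31 without controls 2 and 3.

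Judged by their brightest probe sets, the remaining late sterol genes overlapped between the groups. Dhcr7, the reductase of the last step, differed by 0.18, Sc5d, a desaturase, by 0.11, and Nsdhl, a dehydrogenase of the demethylation steps, by 0.017. Tm7sf2, a sterol reductase, and Hsd17b7, a ketosterol reductase, differed by -0.20 and -0.13. All 4 Hsd17b7 probe sets were lower. The dimmer ones differed by -0.43 ± 0.15 and -0.16 ± 0.11 without overlap, and by -0.21 ± 0.16 with overlap. Stard4, which carries cholesterol between membranes and is no enzyme of synthesis, differed by 0.0022 with a 95% confidence interval of -0.34 to 0.34. Of its dimmer probe sets, 1 differed by 0.47 ± 0.21, narrowly without overlap, and the other by -0.012. For the 10 sterol genes not described array by array, adjusted p lay between 0.629 and 0.997. Without controls 2 and 3 the sign turned for 5 sterol genes. Nsdhl then differed by -0.50, Stard4 by -0.28, Dhcr7 by -0.016, Hmgcs1 by -0.0078 (and by -0.020 with the acinar covariate) and Hsd17b7 by 0.014. The differences of Sc5d and Fdps were larger there, at 0.36 and 0.22. In that setting 11 of 18 sterol genes were higher, with a median of 0.060.

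**Figure D4:**
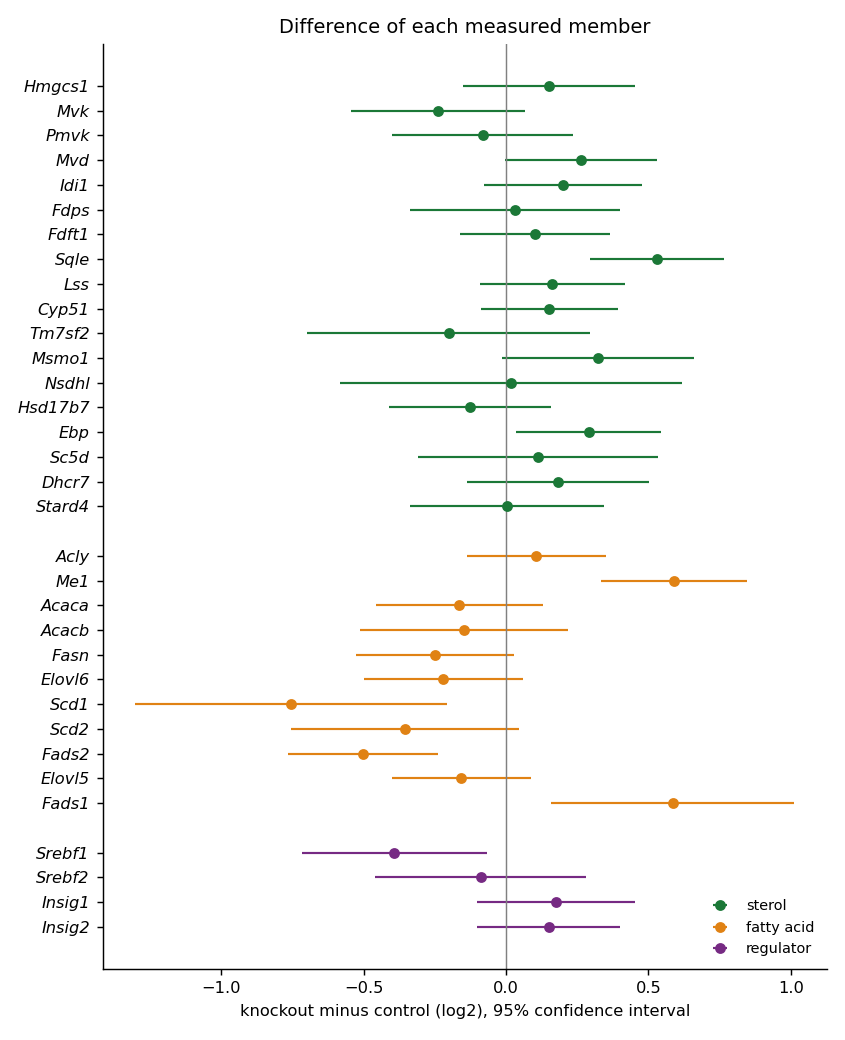
Difference of each measured member, knockout minus control in log2 units (horizontal axis), with its 95% confidence interval from limma, by branch and in pathway order. The intervals of Sqle, Ebp, Me1 and Fads1 lie above 0 and those of Scd1, Fads2 and Srebf1 below 0, before any adjustment for the number of probe sets tested.

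In the fatty acid branch Me1 and Fads1 had the largest positive differences and Scd1 and Fads2 the largest negative ones. Me1, the cytosolic malic enzyme that supplies NADPH, had 9.44, 9.41 and 9.49 in the arrays labelled knockout, against 8.86, 8.73 and 8.97 in controls. The groups were far apart for their spread (9.45 ± 0.04 against 8.86 ± 0.12, SD, n = 3 each), with a difference of 0.59 ± 0.11, or 150% of the control level (95% confidence interval 0.33 to 0.85, adjusted p = 0.0711). A second probe set of nearly the same brightness differed by 0.51 ± 0.13, also without overlap (adjusted p = 0.169). Over the single-array omissions the Me1 difference ran from 0.53 to 0.65, and it was 0.59 with the acinar covariate and 0.58 without controls 2 and 3. Its adjusted p ranged from 0.0212 to 0.320 over the alternatives.

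Acly, which makes cytosolic acetyl-CoA from citrate for both branches, differed by 0.11 ± 0.10 (adjusted p = 0.725). A dimmer Acly probe set differed by -0.70 ± 0.19 without overlap (adjusted p = 0.190). Further bright ones differed by 0.024 and 0.059. The rest differed by 0.024 and 0.080, but their values of 1.97 to 2.20 on all arrays lie near the bottom of the scale and say little. Acaca and Acacb, the acetyl-CoA carboxylases, overlapped between groups and differed by -0.16 and -0.15. Fasn, fatty acid synthase, had 7.84, 7.99 and 7.94 in the arrays labelled knockout and 8.29, 8.22 and 8.01 in controls (-0.25 ± 0.12, adjusted p = 0.433). Elovl6, which lengthens palmitate, had 7.60, 7.68 and 7.47 in the arrays labelled knockout and 7.93, 7.80 and 7.69 in controls (-0.22 ± 0.12, adjusted p = 0.498). In Fasn and in Elovl6 all controls were above all arrays labelled knockout, narrowly at the closest pair. Elovl5, the elongase of polyunsaturated chains, had 11.80, 11.90 and 11.97 in the arrays labelled knockout and 12.07, 11.99 and 12.09 in controls (-0.16 ± 0.10, adjusted p = 0.583), and this gap was narrow too.

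Stearoyl-CoA desaturases place a double bond in saturated fatty acids. Scd1 had 6.08, 5.47 and 6.22 in the arrays labelled knockout, against 6.53, 6.51 and 6.99 in controls. The groups were separate but both wide (5.92 ± 0.40 against 6.68 ± 0.27, SD, n = 3 each), with knockout 2 lowest. The difference of -0.75 ± 0.23 was the largest in size of all members, at 59.3% of the control level, with a 95% confidence interval of -1.30 to -0.21 (adjusted p = 0.241). Its dimmer probe set differed by -0.70 ± 0.18 (adjusted p = 0.170), and without knockout 2 the brighter one differed by -0.53. Scd2 had 10.25, 9.73 and 10.12 in the arrays labelled knockout and 10.57, 10.36 and 10.24 in controls (-0.36 ± 0.17, adjusted p = 0.442). Knockout 1 was just above control 3, so these groups overlapped. Its difference was -0.20 without knockout 2 and -0.54 without controls 2 and 3, and its 3 probe sets differed by -0.30 to -0.41. Both genes lie on chromosome 19 in a cluster of Scd genes, with Scd4 between them in the RefSeq table.

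Fads2 and Fads1 encode the desaturases that act one after the other on polyunsaturated fatty acids, with Elovl5 between them. They are next to each other on chromosome 19 with no other protein-coding gene between them in the RefSeq table, and their differences had opposite signs. Fads2 had 6.38, 6.51 and 6.53 in the arrays labelled knockout, against 7.07, 7.00 and 6.86 in controls, and the groups were well separated. The difference of -0.50 ± 0.11, or 70.6% of the control level, had an interval of -0.76 to -0.24 (adjusted p = 0.117). The probe set is of a type (x_at) that can also match other transcripts, and the other 2 Fads2 probe sets differed by -0.52 and -0.39. Fads1 had 10.41, 10.38 and 9.99 in the arrays labelled knockout and 9.98, 9.57 and 9.49 in controls, a difference of 0.59 ± 0.18 (95% confidence interval 0.16 to 1.01, adjusted p = 0.246). Knockout 3 and control 1 nearly met. The second, much dimmer Fads1 probe set differed by 0.24, with overlap. Without controls 2 and 3 the Fads1 difference was 0.29 and that of Fads2 was -0.60. Within an array, Fads1 minus Fads2 was 4.03, 3.87 and 3.46 in the arrays labelled knockout, against 2.91, 2.57 and 2.62 in controls, and all arrays labelled knockout were higher on this contrast, which shows an unequal difference of the pair; the offset between probe sets itself carries no meaning.

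**Figure D5:**
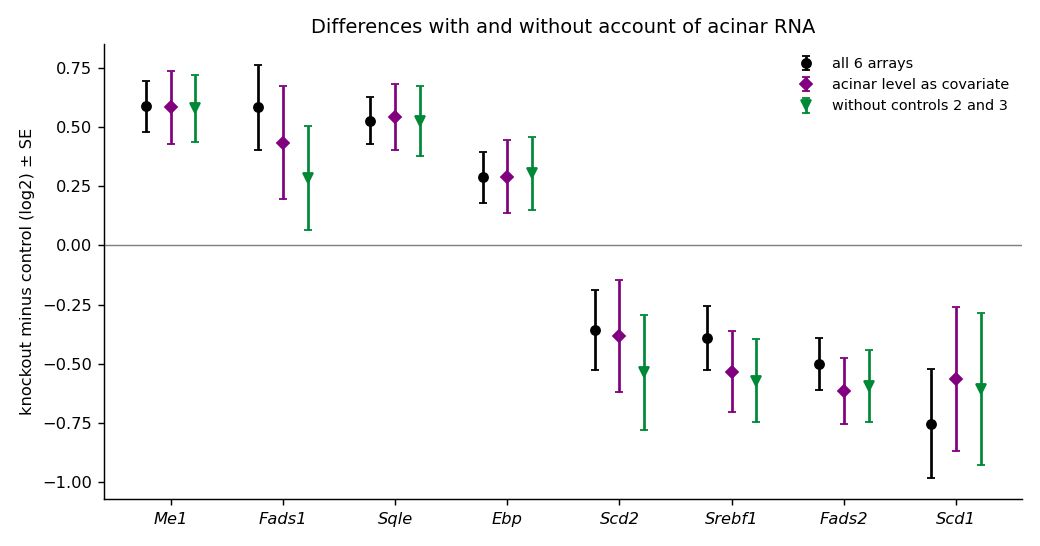
Difference, knockout minus control in log2 units (vertical axis), ± SE for 8 members in 3 fits: all 6 arrays, the acinar marker mean of each array as a covariate, and without controls 2 and 3. Signs are the same in all fits shown; Me1, Sqle and Ebp keep their size, Fads1 is at 0.29 without controls 2 and 3 and Srebf1 there at -0.57.

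Of the 24 members with more than 1 probe set, 17 had all their probe sets on the same side of 0, and 0 of the 76 probe sets of members was called. Among 32 measured genes of the same pathways that are no members (of 37 listed), 0 rose, 1 fell and 31 did not pass, with a median difference of 0.087. The gene that fell was Mlxipl, ChREBP, with 6.23, 6.23 and 6.14 in the arrays labelled knockout and 8.32, 7.50 and 7.85 in controls (-1.69 ± 0.20, adjusted p = 0.0177). Its adjusted p reached 0.0930 when single arrays were omitted, and its groups were far apart on all arrays. The other 5 with the smallest p were all higher without overlap and none passed. Mbtps2, a protease that releases SREBP from the membrane, differed by 0.49 ± 0.13 (adjusted p = 0.176), Acss2, which makes acetyl-CoA from acetate, by 0.45 ± 0.13 (adjusted p = 0.224) and Npc1, the lysosomal cholesterol exporter, by 0.38 ± 0.12 (adjusted p = 0.276). Erlin2, an endoplasmic reticulum membrane protein, differed by 0.29 ± 0.10 (adjusted p = 0.308). Thrsp, a lipogenic gene also called Spot14, had 8.28, 7.79 and 8.02 in the arrays labelled knockout and 7.77, 5.21 and 4.75 in controls (2.12 ± 0.73, adjusted p = 0.295). Its low values were those of controls 2 and 3, the controls with the most acinar RNA, and without these it differed by 0.26.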

How the data were processed

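RNA of islets from 6 mice was measured on 1-colour Affymetrix arrays. The deposited log2 values per probe set were made by the authors with RMA, per the submitters' processing notes, which name the tool alone. RMA usually corrects background, normalizes across arrays and summarises each probe set. The values carry no detection call, and 3 arrays a group limit the precision. From them, 64 manufacturer's control probe sets were left out of the 45101, which left 45037; 34945 had a single symbol in the platform annotation, and 34741 of these matched the RefSeq table of GRCm38.p6 by gene ID. Genes were fitted by lmFit and eBayes of limma (version 3.58.1, under R 4.3.3), with group as the only term and a two-sided test. In 5 simulated data sets of this comparison over 45037 probe sets, 37.9% of 2-fold, 2.09% of 1.5-fold and 80.0% of 4-fold changes were called, and 4.46% of calls were false. Each probe set kept its own mean and spread, 200 were changed, and the noise was normal and independent between probe sets. Shifts shared by many genes, such as those of acinar RNA, are absent from it. The shares therefore hold for that setting and not for the real arrays.

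The members, lists and alternatives were chosen with earlier results of these data known. Values per array are given for the regulators and the 8 members of each branch with the smallest p; of other pathway genes, the 6 with the smallest p were named. The labels state no block, and replicate numbers were not treated as pairs. Deviations from the group means correlated by -0.054, 0.14 and 0.0045 for same-numbered arrays and by -0.13 to 0.10 for the others. With so few arrays this does not settle whether the numbers are pairs. Sequences are those of the RefSeq promoter table, and no protein table was used here. Alternatives covered scaling, dim probe sets, the variance model, probe sets per gene, the adjustment, the replicate block, single arrays and acinar RNA.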

Additional observations from a re-analysis of the deposited data

How the results depend on the processing

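The direction of both branches held in every alternative run: the sterol median stayed above 0 and the fatty acid median below 0. With dim probe sets removed, trend and robust variance, the fit over genes and the replicate block, the members' differences stay the same by construction. No sign could change in those settings, which also holds for the repeats of single genes counted below. The sterol median of 0.13 was 0.18 after median centring (which moves the median of all genes to 0.055), 0.083 after quantile normalization again, 0.095 with the acinar covariate and 0.060 without controls 2 and 3, and ran from 0.10 to 0.19 with 1 array left out. The fatty acid median of -0.16 was -0.11 after median centring, -0.21 after quantile normalization again, -0.29 with the acinar covariate and -0.35 without controls 2 and 3, and ran from -0.27 to -0.15 with 1 array left out. The difference between the branch means, 0.22, was 0.27 without controls 2 and 3 and between 0.19 and 0.24 with 1 array left out. The 0 called members became 2 (Me1 and Sqle) with dim probe sets removed and with trend and robust variance. The same 2 were called with the mean of a gene's probe sets and with the fit and adjustment over genes. No member was called in the other alternatives that kept at least 2 controls. All probe sets called, 404 with all arrays and the settings of the report, were 903 with trend and robust variance, 132 with the acinar covariate, 54 without controls 2 and 3 and 246 with the replicate block, and between 152 (without control 3) and 783 (without control 1) with 1 array left out. With the replicate block 0 members were called. The labels do not state that the numbers pair the arrays. Of the 300 repeats for the 20 genes described by array, 291 kept sign and side of the threshold, 8 passed it (Me1 and Sqle) and 1 reversed, Srebf2 at 0.048 without control 1 (-0.21 to 0.048 with 1 array left out). The cause of these shifts was not tested, except that a fit over fewer features changes the standard errors and the adjustment by construction. Without controls 2 and 3 a single control is left, assumed to vary like the other arrays. With 3 arrays a group, the simulated fit, whose noise was independent between probe sets, found few changes of the size seen here. A member that did not pass is not shown to be unchanged.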
